A study of Homo sapiens with 18 samples.

Results

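Interferon-stimulated genes are the antiviral programme that a cell switches on when interferon binds its receptor. The 49 genes described here were taken from the count table by symbol, from a named list of antiviral effectors, RNA sensors, the ISG15 system and the transcription factors of the pathway. They are 49 of 44016 features in the table, and all 49 passed the filter on low counts, as did 22382 features in all. They were measured by poly(A) mRNA sequencing in A549, an established human lung adenocarcinoma line, in 6 groups of 3 libraries labelled as replicates. The groups were a stable knockdown (KD) of S100A16 given 100 µM hydrogen peroxide (H2O2) for 2 h, the same KD untreated, a stable KD of hnRNPM untreated, a stable KD of MagoHB untreated, wild type (WT) given the same H2O2, and WT untreated. S100A16 is a calcium-binding S100 protein, hnRNPM is a nuclear RNA-binding splicing regulator and MagoHB belongs to the exon junction complex. Every control was a wild-type culture, so the groups hold no vector-only comparison for the stable KDs. The labels do not say how the KDs were made or whether each is 1 clone or a pool.

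As background, interferon receptors signal through the JAK1 and TYK2 kinases to transcription factors, STAT2 and IRF9 among them, which bind the interferon-stimulated response element in promoters. The induced proteins sense foreign RNA, cut or edit it, stop translation, block entry and budding of viruses, and tag proteins with ISG15. In airway epithelial cells the pathway is usually triggered by type I interferons or by lambda interferons, and several of its genes also have a basal level that depends on STAT2, IRF9 or IRF1.

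The promoters of the genes were set beside the response element. RefSeq promoters of build GRCh38.p14, from 250 bases before to 50 bases after the gene start, were at hand for 39 of the 49 genes. DDX58 was matched by its older symbol. The core GAAANNGAA, or TTCNNTTTC on the other strand, was found in 25 of the 39 (64.1%), against 2847 of 35116 promoters (8.11%). The gamma-activated site core TTCNNNGAA, which reads the same on both strands, was found in 10 (25.6%), against 2689 (7.66%), and 6 genes held both. Both motifs were searched on both strands and could share bases, and a match is a description of the letters and not of binding. The 10 genes with no promoter entry were DHX58, OAS2, OASL, IFIT2, IFITM2, MX2, GBP2, TRIM22, USP18 and IRF7. Shown first are 100 bases from the promoters of 8 genes, all picked from the 25 with the core. XAF1 and OAS1, which lead or depart from the pattern below, had no match and are not shown. The bases are written 5′ to 3′ on the gene's strand with the response element core in capitals.
RSAD2, chr2:6865761-6865860, plus strand: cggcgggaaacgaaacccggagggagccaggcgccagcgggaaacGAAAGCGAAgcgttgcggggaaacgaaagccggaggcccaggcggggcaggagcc
GBP3, chr1:89022817-89022916, minus strand: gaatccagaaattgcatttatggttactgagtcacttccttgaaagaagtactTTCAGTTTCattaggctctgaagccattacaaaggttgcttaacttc
BST2, chr19:17405706-17405805, minus strand: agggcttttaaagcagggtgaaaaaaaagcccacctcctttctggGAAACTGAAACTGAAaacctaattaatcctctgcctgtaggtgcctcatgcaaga
IFI44L, chr1:78620239-78620338, plus strand: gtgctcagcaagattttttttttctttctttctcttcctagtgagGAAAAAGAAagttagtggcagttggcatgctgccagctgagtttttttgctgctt
IFIT1, chr10:89392463-89392562, plus strand: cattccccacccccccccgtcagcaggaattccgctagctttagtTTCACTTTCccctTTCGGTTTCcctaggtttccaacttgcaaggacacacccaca
ISG15, chr1:1013339-1013438, plus strand: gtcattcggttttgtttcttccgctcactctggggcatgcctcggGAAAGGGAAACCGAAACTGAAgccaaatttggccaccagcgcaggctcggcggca
IFI6, chr1:27672294-27672393, minus strand: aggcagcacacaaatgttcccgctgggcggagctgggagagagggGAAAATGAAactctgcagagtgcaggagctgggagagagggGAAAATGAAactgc
EIF2AK2, chr2:37156932-37157031, minus strand: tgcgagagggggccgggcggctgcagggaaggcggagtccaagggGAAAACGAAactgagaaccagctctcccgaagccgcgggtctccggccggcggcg
RSAD2, GBP3, BST2 and IFI44L were among the genes with the highest fold changes in the S100A16 KD, IFIT1 and ISG15 are classical members with several cores, and IFI6 and EIF2AK2 were higher in one KD and lower in another. BST2 and ISG15 carried overlapping cores, IFIT1 carried 2 cores in tandem, and IFI6 repeated the same stretch around its core.

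Libraries held 36612997 counts (hnRNPM KD 2) to 51406431 counts (MagoHB KD 2). Gene coordinates are those of the count table, on GRCh38. Levels are given as CPM, counts corrected for library size and scaled by TMM. Each targeted mRNA was lower in its own KD than in WT, with S100A16 at 8.43 against 119 CPM (-3.81 log2), HNRNPM at 368 against 1766 CPM (-2.27) and MAGOHB at 52.1 against 149.6 CPM (-1.52). The KDs also shared changes in these mRNAs. MAGOHB (-0.62) and HNRNPM (-0.57) were called lower in the S100A16 KD, MAGOHB in the hnRNPM KD (-1.17), and S100A16 (-0.97) and HNRNPM (-0.31) in the MagoHB KD. Of 8 epithelial markers of A549, 7 or 8 were above 1 CPM in every group, and their summed level was 7952 to 8093 CPM in the hnRNPM KD and 6936 to 9472 CPM in the MagoHB KD, against 13740 to 14800 CPM in WT. Of 8 leukocyte markers, 1 was above 1 CPM in 5 groups (ITGAM) and 2 in WT under H2O2. Their sum was 8.37 to 8.55 CPM in the S100A16 KD, 4.00 to 4.77 CPM in the hnRNPM KD and 4.72 to 7.94 CPM in the MagoHB KD, against 3.07 to 3.73 CPM in WT, with CD3E at 0 in the hnRNPM KD and in WT. ITGAM made up most of that sum, at 7.03, 2.57 and 5.71 CPM in the S100A16, hnRNPM and MagoHB KDs, against 2.13 CPM in WT. Endothelial markers summed to at most 1.02 CPM in any library, and fibroblast markers to 51.0 to 58.8 CPM in the S100A16 KD, 75.2 to 91.2 CPM in the hnRNPM KD and 49.03 to 77.4 CPM in the MagoHB KD, against 87.1 to 118 CPM in WT. Mitochondrial genes took 7.56% to 7.87% of counts in the untreated S100A16 KD, at least 9.6% in the hnRNPM KD and 7.26% to 7.51% in the MagoHB KD, against 9.84% to 10.3% in untreated WT. The part of these shifts in the results was not tested. The 3 libraries that stood apart were S100A16 KD untreated 1, with 605 CPM of short non-coding RNA genes against 37.1 to 70.5 CPM elsewhere, hnRNPM KD 3 and MagoHB KD 2. The hnRNPM and MagoHB libraries of these stood apart within the interferon-stimulated genes themselves, and results that rest on them are given with and without them.

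The 49 genes took 0.334% to 0.356% of all counts in the untreated S100A16 KD and 0.334% to 0.360% in that KD under H2O2. They took 0.129% to 0.193% in the hnRNPM KD and 0.166% to 0.309% in the MagoHB KD, against 0.115% to 0.125% in untreated WT and 0.125% to 0.131% in WT under H2O2. In bulk libraries, a larger share of responding cells and more RNA per cell cannot be told apart. The genes were also detected in WT cells. By deposited RPKM, which corrects for exon length, the highest levels among the genes in WT were those of ISG15 (42.6), IFIT3 (34.1), IFIT2 (21.8), ADAR (18.7) and OAS1 (18.1). MX2 (0.0149), MX1 (0.0678) and IFI44L (0.190) had the lowest RPKM in WT. In the S100A16 KD the order by RPKM began with IFIT3 (143), ISG15 (121) and IFIT1 (47.3), and OAS1 (30.3) stood below IFIT2 (36.4), DDX58 (35.3) and OASL (34.4).

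**Figure D1:**
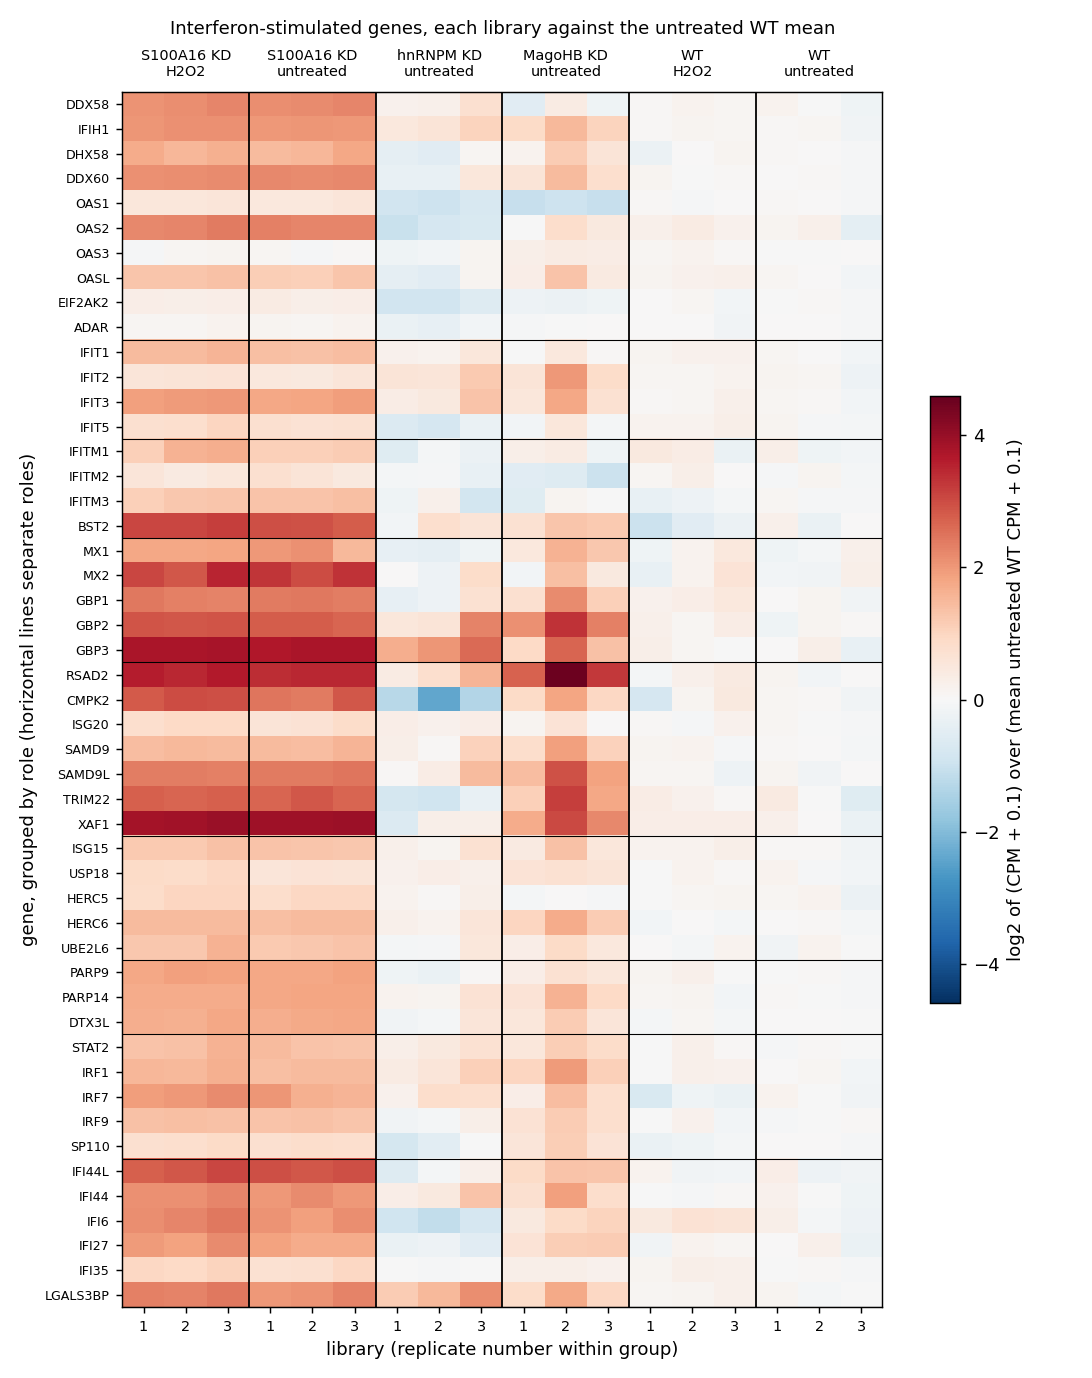
Each row is 1 of the 49 genes and each column 1 of the 18 libraries, coloured by the log2 ratio of CPM + 0.1 to the untreated WT mean + 0.1 (red above, blue below). The 6 columns of the S100A16 KD are red for nearly all genes, with OAS3 and ADAR near white, the MagoHB KD is red most of all in library 2, and the hnRNPM KD mixes red and blue.

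The question of the S100A16 KD comparison is which genes changed when S100A16 was low. Nearly the whole programme was higher. Of the 49 genes, 46 were called higher and 0 lower in the untreated S100A16 KD than in untreated WT (edgeR quasi-likelihood F test, Benjamini-Hochberg adjusted p under 0.05), where 27.6% of all genes tested were called higher and 24.8% lower. The median log2 fold change of the 49 was 1.73, beside 0.06 over all genes tested, and 37 of the 49 were called higher by 1 or more on the log2 scale. The shares above are for calls of any size, and the share of all genes at this size was not counted. All 3 KD libraries stood above all 3 WT libraries for 48 of the 49, as they did for 34.2% of all genes, and 29.9% of all genes had all KD libraries below. The 3 genes that were not called were ADAR (0.13, adjusted p = 0.0857), IFIT2 (0.50, 0.169) and OAS3 (0.04, 0.651).

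Among RNA sensors and enzymes that respond to or edit double-stranded RNA, 8 of 10 were higher. DDX58 (chr9:32455705-32526324), the sensor RIG-I, had 138, 142 and 147 CPM in the S100A16 KD libraries, against 35.3, 31.1 and 27.2 CPM in WT (log2 fold change 2.19 ± 0.20 (SE), adjusted p = 5.02e-07). IFIH1, the sensor MDA5, averaged 116 ± 1.52 CPM in the KD and 28.8 ± 2.61 CPM in WT (SD, n = 3), and the helicase DDX60 averaged 142 ± 1.84 and 30.8 ± 1.18 CPM. DHX58, the third helicase of the RIG-I family, was higher by 1.61 on the log2 scale. The oligoadenylate synthetases make the messenger that activates RNase L, and the 3 neighbours on chromosome 12 did not move alike. OAS2 (chr12:112978395-113011723) had 13.6, 12.9 and 13.1 CPM in the KD, against 2.93, 3.11 and 1.91 CPM in WT (log2 fold change 2.31 ± 0.17 (SE), adjusted p = 2.56e-10). OAS1 (chr12:112906777-112933222) had 136, 137 and 145 CPM, against 101, 98.9 and 94.1 CPM (log2 fold change 0.50 ± 0.06 (SE), adjusted p = 4.12e-07). OAS3, which lies between them, had 64, 57.9 and 62.1 CPM in the KD and 59.5, 59.2 and 60.1 CPM in WT, and the groups overlapped. EIF2AK2 (chr2:37099210-37157065), the kinase PKR that stops translation, had 167, 154 and 158 CPM in the KD, against 126, 133 and 124 CPM in WT. That is a log2 fold change of 0.32 ± 0.07 (adjusted p = 0.000478), the lowest of the called genes, without overlap between the groups.

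All 5 GTPases, all 7 other effectors and all 4 membrane restriction factors were called higher. XAF1 (chr17:6755447-6775647), which binds the apoptosis inhibitor XIAP, had 41.1, 41.7 and 42.4 CPM in the KD, against 3.18, 2.73 and 2.16 CPM in WT (log2 fold change 3.95 ± 0.30 (SE), adjusted p = 1.07e-07). GBP3 (chr1:89006666-89022894), a guanylate-binding protein, had 74.2, 78.6 and 79 CPM, against 5.72, 6.93 and 4.41 CPM (log2 fold change 3.76 ± 0.41 (SE), adjusted p = 5.17e-06). These are the highest fold changes of the 49, and the KD libraries differed among themselves by far less than from WT. RSAD2 (chr2:6865806-6898239), viperin, which makes a nucleotide that ends viral RNA chains, had 26.9, 27.8 and 28 CPM, against 2.68, 2.23 and 2.46 CPM (log2 fold change 3.49 ± 0.45 (SE), adjusted p = 2.28e-05). BST2 (chr19:17402939-17405648), tetherin, which holds budding virus at the membrane, had 5.13, 5.03 and 4.61 CPM, against 0.687, 0.454 and 0.592 CPM (log2 fold change 3.09 ± 0.23 (SE), adjusted p = 2.62e-10). MX2 (chr21:41361943-41409390), a dynamin-like GTPase, was close to the filter level of 0.222 CPM in WT, at 0.183, 0.182 and 0.273 CPM, while the KD libraries held 2.95, 2.41 and 3.06 CPM (log2 fold change 3.71 ± 0.39 (SE), adjusted p = 6.69e-08). MX2 was under that level in WT 1 and WT 2 and over it in every S100A16 KD library. It therefore entered the tests through groups in which it was high, and its call is not separate support. The other 48 genes were over that level in all 3 untreated WT libraries.

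Smaller but called differences were found for IFITM2 and ISG20. IFITM2 (chr11:307631-315272), which blocks fusion of virus with the endosome, had 9.15, 8.31 and 7.42 CPM in the KD, against 5.24, 5.95 and 5.12 CPM in WT (log2 fold change 0.61 ± 0.12 (SE), adjusted p = 0.000307). IFITM1, IFITM2 and IFITM3 are related genes, and IFITM1 and IFITM2 share exon bases in the annotation, so reads may have been split between them. The exonuclease gene ISG20 had 31.5, 32.7 and 37.3 CPM, against 22, 20.4 and 19.7 CPM (log2 fold change 0.71 ± 0.11 (SE), adjusted p = 3.19e-05). CMPK2, a mitochondrial nucleotide kinase next to RSAD2, was higher by 2.67, and TRIM22, a ubiquitin ligase, by 2.79. SAMD9L and SAMD9, neighbouring restriction factors of poxviruses, were higher by 2.44 and 1.49.

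The IFIT proteins bind foreign RNA ends, and 3 of 4 were higher. IFIT3 (1.83), IFIT1 (1.38) and IFIT5 (0.71) were called, with IFIT5 at 27.1, 26 and 26.8 CPM in the KD, against 17.9, 15.6 and 15.5 CPM in WT. IFIT2 (chr10:89283694-89309276) had 138, 133 and 144 CPM, against 106, 103 and 84.1 CPM, and did not pass the test although the groups did not overlap. It was called in a fit to the compared groups alone, and also without the 3 libraries that stood apart. The ISG15 system attaches a ubiquitin-like protein to other proteins. ISG15 itself (1.27), the conjugating enzyme UBE2L6 (1.27), the ligase HERC5 (0.91), HERC6 (1.45) and the deconjugating protease USP18 (0.59) were all called higher. USP18 had 19.7, 20.6 and 20.5 CPM in the KD, against 15.2, 12.9 and 12.3 CPM in WT.

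PARP9 and DTX3L, which form a complex and share a head-to-head locus on chromosome 3, were higher by 1.80 and 1.73, and the ADP-ribosyltransferase PARP14 by 1.80. The 5 transcription factors were all called. IRF7, which amplifies interferon induction, was higher by 1.85, IRF1 by 1.45, STAT2 by 1.35 and the nuclear body protein SP110 by 0.78, and IRF9 averaged 46.4 ± 0.916 CPM in the KD and 18.6 ± 0.775 CPM in WT (SD, n = 3). Of the IFI family, IFI44L (chr1:78619922-78646145) had 17.3, 16.2 and 17.3 CPM in the KD, against 2.68, 1.79 and 1.91 CPM in WT (log2 fold change 2.99 ± 0.17 (SE), adjusted p = 1.11e-11). LGALS3BP, a secreted glycoprotein that binds galectins, IFI44, IFI6, IFI27 and IFI35 were higher by 2.12, 2.06, 2.06, 1.84 and 0.81. None of the 46 calls was lost in any of the alternatives run, and leaving out S100A16 KD 1, the library with high short RNA, kept the same 46.

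The KD was next compared with WT under H2O2, in libraries that share none with the untreated comparison. The stable KD, the WT cells and the spread estimated over all libraries were the same, so this is not an independent knockdown. Of the 49 genes, 47 were called higher and 0 lower, where 27.9% of all genes tested were called higher and 24.7% lower. The median log2 fold change was 1.70, beside 0.06 over all genes, and 46 genes were called higher in both conditions. BST2 had 5.65, 5.64 and 6.04 CPM in the KD under H2O2, against 0.245, 0.367 and 0.466 CPM in WT under H2O2 (log2 fold change 4.01 ± 0.25 (SE), adjusted p = 1.64e-11). GBP3 had 78.2, 79.1 and 79.2 CPM, against 6.94, 6.04 and 5.65 CPM (log2 fold change 3.66 ± 0.41 (SE), adjusted p = 6.62e-06). XAF1 had 39.5, 40.9 and 43.8 CPM, against 3.38, 3.38 and 3.38 CPM (log2 fold change 3.61 ± 0.30 (SE), adjusted p = 2.29e-07). In each of these, all KD libraries stood far above all WT libraries. The BST2 level in WT under H2O2 was close to the filter level of 0.222 CPM, which limits the precision of its fold change. CMPK2 was higher by 3.00, RSAD2 by 3.44 and MX2 by 3.40. At the low end, OAS1 was higher by 0.52 (adjusted p = 2.38e-07) and EIF2AK2 by 0.29 (0.00132). IFITM2 (0.36, 0.021) and ADAR, the enzyme that edits adenosine in double-stranded RNA (0.16, 0.0319), were called by a narrow margin. IFITM2 lost its call without S100A16 KD H2O2 1 (0.32, adjusted p = 0.0698) or 3 (0.34, 0.0534), and without WT H2O2 1 (0.32, 0.0733) or 3 (0.29, 0.0965). ADAR lost it without S100A16 KD H2O2 2 (0.17) or 3 (0.13, 0.118), without WT H2O2 3 (0.09, 0.272), with DESeq2 and with no filter on low counts. IFIT2 (0.47) and OAS3 (-0.05) were not called.

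No effect of 2 h of H2O2 on these genes passed the test. In WT, 0 of the 49 were called in either direction, where 0.147% of all genes tested were called higher and 0.076% lower. An unadjusted p under 0.05 was found for 3 of the 49 and for 1477 of all 22382 genes tested. In the S100A16 KD, 0 were called, where 0% of all genes were called higher and 0.0134% lower. There 2 of the 49 and 1515 of all genes tested had an unadjusted p under 0.05. IFI6 had 6.2, 7.17 and 6.88 CPM in WT under H2O2, against 5.47, 4.18 and 3.85 CPM in untreated WT, without overlap (log2 fold change 0.58, adjusted p = 0.184). USP18 had 25.2, 24.6 and 25.9 CPM in the KD under H2O2, against 19.7, 20.6 and 20.5 CPM in the untreated KD (0.31, 0.343). DESeq2 called 1 of the 49 in each, among 97 genes called in all in WT and 54 in the KD. A fit to the compared groups alone called 4 of the 49 in WT among 535 genes in all, and 2 in the KD among 804. The interaction, which asks whether the KD's fold change differed between the conditions, was called for 0 of the 49, where 0.0179% of all genes were called higher and 0.076% lower. Here 2 of the 49 and 1134 of all genes tested had an unadjusted p under 0.05, and the lowest adjusted p among the 49 was 0.871. BST2 had the highest difference between the conditions (0.93 ± 0.36 SE) and GBP1 the lowest (-0.40 ± 0.46), and 47 of 49 lay within 0.5 of 0. A p that misses the threshold does not show that the fold changes were equal.

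**Figure D2:**
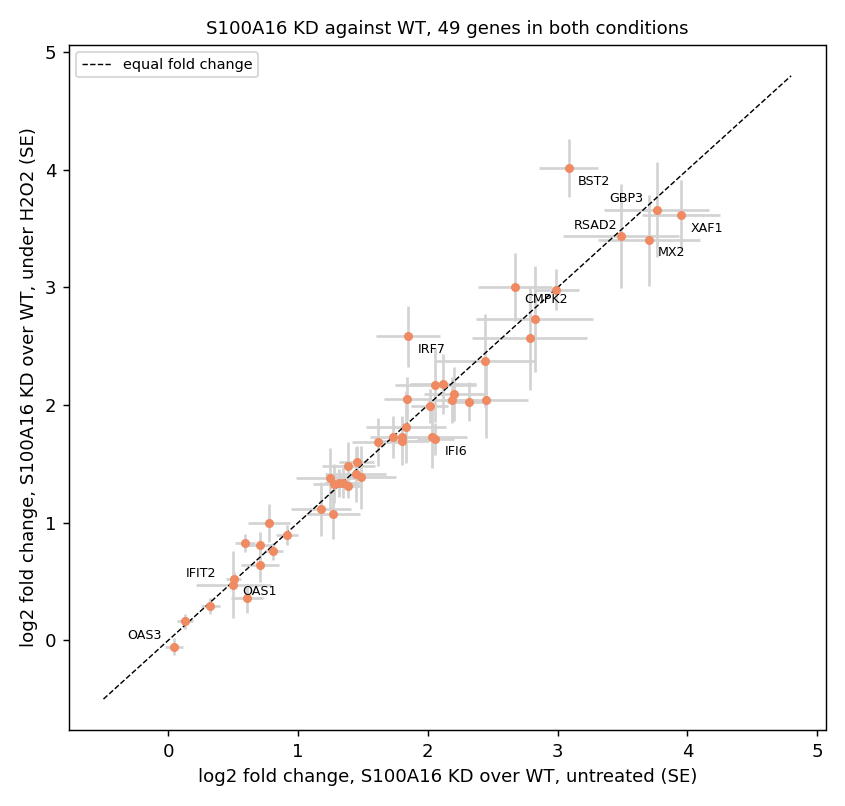
Each point is 1 of the 49 genes, with the log2 fold change of the S100A16 KD over WT untreated on the x axis and under H2O2 on the y axis, grey bars giving the SE and the dashed line equal values. Most genes lie along the line, with OAS3 near 0 and XAF1 and GBP3 near the top, while BST2 and IRF7 lie above it.

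In the MagoHB KD, part of the same programme was higher. Of the 49 genes, 38 were called higher and 3 lower than in untreated WT, where 23.3% of all genes tested were called higher and 22.3% lower. The WT libraries are the same 3 as in the other untreated KD comparisons, so the fold changes of the KDs are given side by side and their likeness was not tested. The median log2 fold change was 0.89, beside 0.04 over all genes, and 21 genes were called higher by 1 or more. The share of all genes at this size was again not counted. RSAD2 had 16.5, 58.8 and 24 CPM in the MagoHB KD, against 2.68, 2.23 and 2.46 CPM in WT (log2 fold change 3.76 ± 0.45 (SE), adjusted p = 1.69e-05). GBP2 (chr1:89106132-89150456) had 7.32, 17.2 and 8.52 CPM, against 1.42, 1.77 and 1.71 CPM (log2 fold change 2.76 ± 0.45 (SE), adjusted p = 0.00024). XAF1 had 9.05, 22.6 and 12.8 CPM, against 3.18, 2.73 and 2.16 CPM (log2 fold change 2.47 ± 0.30 (SE), adjusted p = 1.53e-05). For each of them library 2 was the highest and library 1 the lowest of the KD, and even library 1 stood above every WT library. TRIM22 (chr11:5689689-5737089) had 4.86, 21.1 and 7.92 CPM, against 3.02, 2.2 and 1.5 CPM (log2 fold change 2.35 ± 0.44 (SE), adjusted p = 0.000752). SAMD9L (chr7:93130055-93148369) had 21.2, 61.1 and 29.3 CPM, against 8.66, 7.13 and 8.08 CPM (log2 fold change 2.23 ± 0.39 (SE), adjusted p = 0.000477). GBP3 had 10.9, 37.3 and 14.7 CPM, against 5.72, 6.93 and 4.41 CPM (log2 fold change 1.90 ± 0.40 (SE), adjusted p = 0.00176). Library 2 was again the highest for these 3 genes, and the highest TRIM22 level was 4.35 times the lowest among the KD libraries.

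All 7 other effectors, all 5 transcription factors, all 6 genes of the IFI family with LGALS3BP and all 3 of PARP9, PARP14 and DTX3L were called higher in the MagoHB KD, as were 4 of 5 GTPases and 4 of 5 genes of the ISG15 system. The sensors split, with 6 of 10 higher and 2 lower. IFIH1 was higher by 1.16 and DDX60 by 0.98, whereas DDX58 had 21.6, 40.8 and 26.9 CPM in the KD, against 35.3, 31.1 and 27.2 CPM in WT, and was not called (-0.06, adjusted p = 0.82). OAS1 had 47.5, 50.4 and 47.1 CPM in the KD, against 101, 98.9 and 94.1 CPM in WT, and fell (log2 fold change -1.02 ± 0.06 (SE), adjusted p = 1.43e-11). Its neighbour OAS3 had 71.9, 77.8 and 74.8 CPM, against 59.5, 59.2 and 60.1 CPM, and rose (log2 fold change 0.33 ± 0.07 (SE), adjusted p = 0.00067). EIF2AK2 had 108, 105 and 111 CPM, against 126, 133 and 124 CPM, and was called lower (log2 fold change -0.24 ± 0.07 (SE), adjusted p = 0.00866), but its fold change was -0.03 (adjusted p = 0.789) when libraries were scaled by total counts alone. IFITM2 had 3.75, 3.54 and 2.67 CPM, against 5.24, 5.95 and 5.12 CPM, and was lower (log2 fold change -0.71 ± 0.13 (SE), adjusted p = 0.000138), with IFITM1 (0.20) and IFITM3 (-0.11) not called. At the low end of the called genes, IFI35 averaged 20.8 ± 0.722 CPM, against 17.6 ± 0.537 CPM (log2 fold change 0.24 ± 0.07 (SE), adjusted p = 0.00943), and ISG20 had 22.8, 31.9 and 20.9 CPM, against 22, 20.4 and 19.7 CPM (log2 fold change 0.29 ± 0.11 (SE), adjusted p = 0.0488). ISG20 overlapped between the groups and lost its call without MagoHB KD 2 (0.08, adjusted p = 0.499) and without each WT library (0.0578 to 0.157), and also with DESeq2 (0.0582), the fit to the compared groups alone (0.162) and the replicate block (0.0686).

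MagoHB KD 2 was the highest of its 3 libraries for 44 of the 49 genes, with a median log2 ratio of 0.63 to the other 2. The targeted MAGOHB mRNA was 37.8 CPM there, against 61.5 and 56.9 CPM in libraries 1 and 3. HNRNPM (1148 against 1598 and 1513 CPM) and S100A16 (73.4 against 52.0 and 56.2 CPM) differed there as well. Any link of these levels to the 49 genes was not tested. Without library 2, 35 genes were called higher and 3 lower, and the median log2 fold change was 0.63. Only RSAD2, GBP2, XAF1, SAMD9L, TRIM22, GBP3, IFI44L, BST2, HERC6, IRF1 and MX1 were then higher by 1 or more, against the 21 stated above. IFIH1, at 1.16 with all libraries, was at 0.95. TRIM22 was then higher by 1.52, RSAD2 by 3.05 and GBP3 by 1.18, each still called. The 6 genes with the highest fold changes in the MagoHB KD stood above every WT library in libraries 1 and 3 as well.

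**Figure D3:**
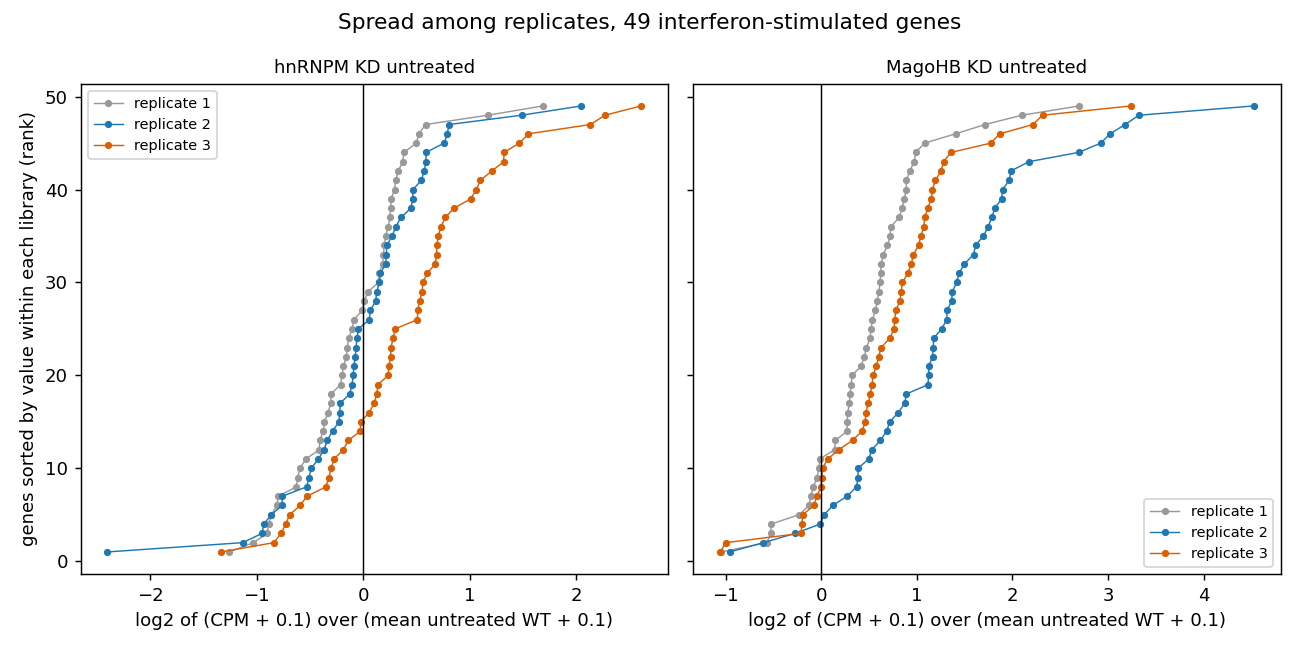
Each line is 1 library of the hnRNPM KD (left) or the MagoHB KD (right), with the 49 genes sorted within the library and placed by the log2 ratio of CPM + 0.1 to the untreated WT mean + 0.1. Replicate 3 of the hnRNPM KD and replicate 2 of the MagoHB KD lie to the right of their partners over most of the range.

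In the hnRNPM KD the genes divided. Of the 49, 11 were called higher and 7 lower than in untreated WT, where 25.4% of all genes tested were called higher and 23.8% lower, so the share called higher among the 49 was near that of all genes. With libraries scaled by total counts alone the split was 15 higher and 6 lower. The median log2 fold change was 0.15, beside 0.02 over all genes. GBP3 had 18.5, 23.8 and 35.1 CPM in the hnRNPM KD, against 5.72, 6.93 and 4.41 CPM in WT (log2 fold change 2.18 ± 0.40 (SE), adjusted p = 0.000536). LGALS3BP (chr17:78971238-78980109) had 49.1, 61.2 and 95.9 CPM, against 23.6, 20.5 and 21.3 CPM (log2 fold change 1.66 ± 0.25 (SE), adjusted p = 0.000105). IFIH1 (chr2:162267079-162318703) had 40.7, 43.3 and 58 CPM, against 30.1, 30.5 and 25.8 CPM (log2 fold change 0.72 ± 0.14 (SE), adjusted p = 0.000584). For these 3 genes every KD library stood above every WT library, and the calls held in every alternative run. GBP2 had 2.39, 2.51 and 8.25 CPM, against 1.42, 1.77 and 1.71 CPM (log2 fold change 1.44 ± 0.47 (SE), adjusted p = 0.0219). IFIT2 had 147, 146 and 226 CPM, against 106, 103 and 84.1 CPM (log2 fold change 0.82 ± 0.29 (SE), adjusted p = 0.0322). IFIT3 (chr10:89327894-89340971) had 124, 134 and 246 CPM, against 104, 101 and 90.5 CPM (log2 fold change 0.77 ± 0.30 (SE), adjusted p = 0.0498). In these 3 the third KD library was the highest by a wide margin, and their calls rest on it. Without it GBP2 was at 0.58 (adjusted p = 0.188), IFIT2 at 0.58 (0.148) and IFIT3 at 0.39 (0.287). IFIT2 and IFIT3 also lost their calls without any 1 WT library, and GBP2 without WT 1 (1.35, 0.0678) or WT 3 (1.47, 0.0518).

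The 7 genes that fell in the hnRNPM KD were 14.3% of the 49, where 23.8% of all genes tested were called lower. Among the 10 RNA sensors and enzymes that respond to or edit double-stranded RNA, 4 fell, 1 rose and 5 were not called. OAS1 had 53, 50.7 and 59.2 CPM in the KD, against 101, 98.9 and 94.1 CPM in WT (log2 fold change -0.85 ± 0.06 (SE), adjusted p = 1.67e-10). OAS2 had 1.25, 1.52 and 1.6 CPM, against 2.93, 3.11 and 1.91 CPM (log2 fold change -0.87 ± 0.20 (SE), adjusted p = 0.000943). EIF2AK2 had 70.0, 69.9 and 84.4 CPM, against 126, 133 and 124 CPM (log2 fold change -0.77 ± 0.07 (SE), adjusted p = 8.27e-09). None of these overlapped with WT. ADAR (chr1:154582062-154627999) had 138, 132 and 155 CPM, against 174, 172 and 166 CPM (log2 fold change -0.27 ± 0.06 (SE), adjusted p = 0.000993), and missed the threshold by total counts alone (-0.15, adjusted p = 0.0619). IFI6 (chr1:27666061-27672218), which inhibits apoptosis and flavivirus replication at the endoplasmic reticulum, had 2.37, 2.00 and 2.59 CPM, against 5.47, 4.18 and 3.85 CPM (log2 fold change -0.95 ± 0.16 (SE), adjusted p = 5.67e-05). IFIT5 (chr10:89414586-89421001) had 10.5, 9.6 and 13.2 CPM, against 17.9, 15.6 and 15.5 CPM (log2 fold change -0.55 ± 0.15 (SE), adjusted p = 0.00511), so within the IFIT cluster on chromosome 10 it moved the other way from IFIT2 and IFIT3. CMPK2 was at 0.494, 0.169 and 0.464 CPM, against 1.4, 1.39 and 1.18 CPM (log2 fold change -1.75 ± 0.40 (SE), adjusted p = 0.00157), the lowest fold change of the 49 though at a level under 1 CPM in the KD. RSAD2, which lies head to head with CMPK2 and shares 14 exon bases with it on the opposite strand, had 3.23, 4.22 and 7.38 CPM, against 2.68, 2.23 and 2.46 CPM, and was not called (1.02, adjusted p = 0.0948).

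The remaining hnRNPM calls were IRF1 (0.71), IRF7 (0.65), STAT2 (0.49), IFIT1 (0.31) and USP18 (0.25), and of these STAT2 kept its call in every alternative run while the others lost theirs without some single libraries. Library 3 of the hnRNPM KD was the highest of its 3 for 40 of the 49 genes, with a median log2 ratio of 0.39 to the other 2. Its HNRNPM mRNA was 281 CPM, against 397 and 424 CPM in libraries 1 and 2. MAGOHB (54.5 against 76.8 and 67.9 CPM) and S100A16 (138.7 against 109.6 and 113.1 CPM) differed there as well. Any link of these levels to the 49 genes was not tested. Without library 3, 5 genes were called higher and 10 lower, and the median log2 fold change was -0.07. The count of genes called higher was also 6, 7 or 4 when WT 1, 2 or 3 was left out, while the count called lower stayed at 7.

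**Figure D4:**
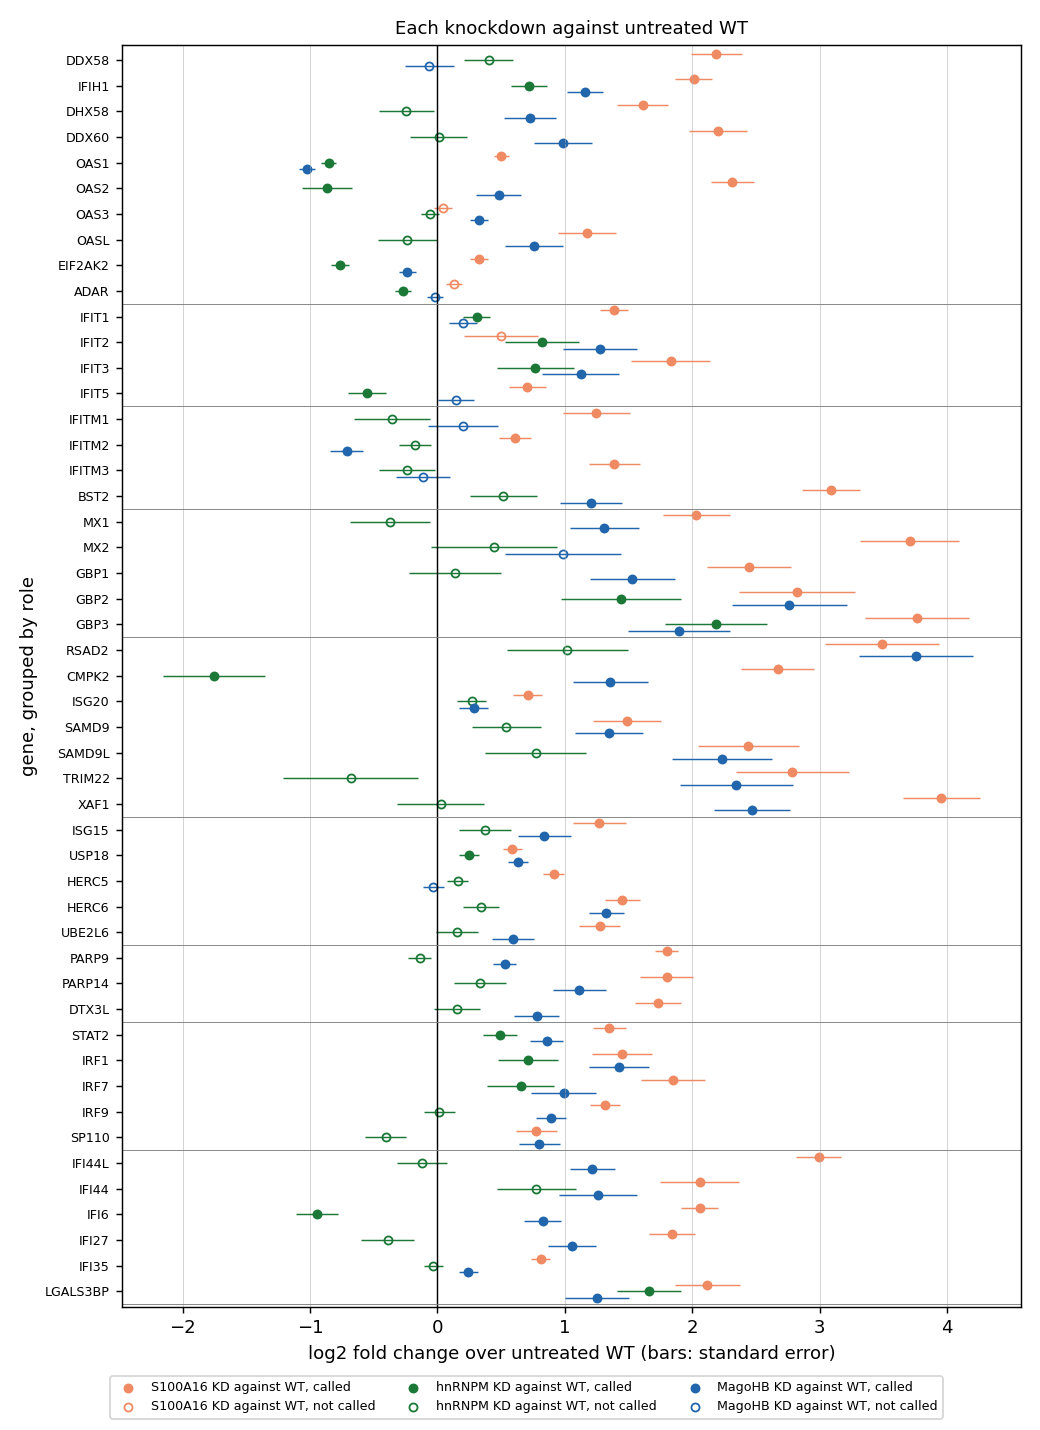
Points give the log2 fold change over untreated WT for each of the 49 genes in the S100A16 (orange), hnRNPM (green) and MagoHB (blue) KDs, filled where called and open where not, with bars for the SE. Orange points lie to the right for 46 genes, blue points lie between 0 and the orange for most, and green points scatter on both sides of 0.

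The 3 KDs were then compared directly, with fold changes that do not use the WT levels and a spread that was estimated over all 6 groups. Against the MagoHB KD, the S100A16 KD was higher for 34 of the 49 genes and lower for 2, where 23.2% of all genes tested were called higher and 21.7% lower. MX2 had 2.95, 2.41 and 3.06 CPM in the S100A16 KD, against 0.190, 0.709 and 0.332 CPM in the MagoHB KD (log2 fold change 2.72 ± 0.35 (SE), adjusted p = 1e-06). MagoHB KD 1 was under the filter level of 0.222 CPM, so here MX2 met the filter through the S100A16 KD, where it was high. DDX58 had 138, 142 and 147 CPM, against 21.6, 40.8 and 26.9 CPM (log2 fold change 2.25 ± 0.20 (SE), adjusted p = 3.62e-07). BST2 had 5.13, 5.03 and 4.61 CPM, against 0.996, 1.52 and 1.45 CPM (log2 fold change 1.88 ± 0.20 (SE), adjusted p = 7.03e-08). In these 3, every S100A16 KD library stood above every MagoHB KD library, the second MagoHB library included. GBP3 was higher by 1.87, OAS2 by 1.83 and IFI44L by 1.77. Of the 13 genes not called, RSAD2 (-0.27 ± 0.37 SE), GBP2 (0.06 ± 0.38), IRF1 (0.02 ± 0.23) and SP110 (-0.02 ± 0.16) had differences smaller than their SE. The lower genes were OAS3 (-0.29, adjusted p = 0.0021) and IFIT2 (-0.78, 0.0433). IFIT2 lost its call without MagoHB KD 2 and without any 1 S100A16 KD library, which left 1 gene lower, and with total counts alone, no filter, the replicate block and the compared groups alone. Without MagoHB KD 2, 40 genes were called higher, GBP3 was at 2.59 and MX2 at 3.39, TRIM22 was called (1.27), and RSAD2 was at 0.44 (adjusted p = 0.138).

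Against the hnRNPM KD, the S100A16 KD was higher for 46 genes and lower for 0, where 24.6% of all genes were called higher and 24.2% lower. CMPK2 had 7.75, 7.41 and 10.1 CPM in the S100A16 KD, against 0.494, 0.169 and 0.464 CPM in the hnRNPM KD (log2 fold change 4.42 ± 0.34 (SE), adjusted p = 8.93e-09). XAF1 was higher by 3.93, TRIM22 by 3.47, MX2 by 3.26, OAS2 by 3.18 and IFI44L by 3.11. The genes not called were OAS3 (0.10), IFIT2 (-0.32) and LGALS3BP (0.46 ± 0.24 SE), the last with 86.8, 91 and 106 CPM in the S100A16 KD, against 49.1, 61.2 and 95.9 CPM in the hnRNPM KD. Only library 3 of the hnRNPM KD overlapped there, and LGALS3BP was called without it.

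The hnRNPM KD was higher than the MagoHB KD for 2 genes and lower for 33, where 22.3% of all genes were called higher and 22.2% lower. CMPK2 had 0.494, 0.169 and 0.464 CPM in the hnRNPM KD, against 2.54, 4.91 and 2.63 CPM in the MagoHB KD (log2 fold change -3.11 ± 0.36 (SE), adjusted p = 1.59e-06). TRIM22 had 1.25, 1.13 and 1.77 CPM, against 4.86, 21.1 and 7.92 CPM (log2 fold change -3.03 ± 0.47 (SE), adjusted p = 0.000144). RSAD2 was lower (-2.74), as were XAF1 (-2.45), IFI6 (-1.77) and MX1 (-1.68). The 2 higher genes were IFITM2 (0.54, adjusted p = 0.00212) and OAS1 (0.17, 0.0305). OAS1 lost its call without hnRNPM KD 3, MagoHB KD 1 or MagoHB KD 3, and by total counts alone (0.07, adjusted p = 0.41). Without MagoHB KD 2, 7 genes were called higher and 25 lower, with TRIM22 at -2.20 and RSAD2 at -2.03. GBP3 (0.29 ± 0.36 SE) was not called between these KDs, but was called higher without that library (1.01, adjusted p = 0.00412). A fit to the compared groups alone called 22 lower.

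**Figure D5:**
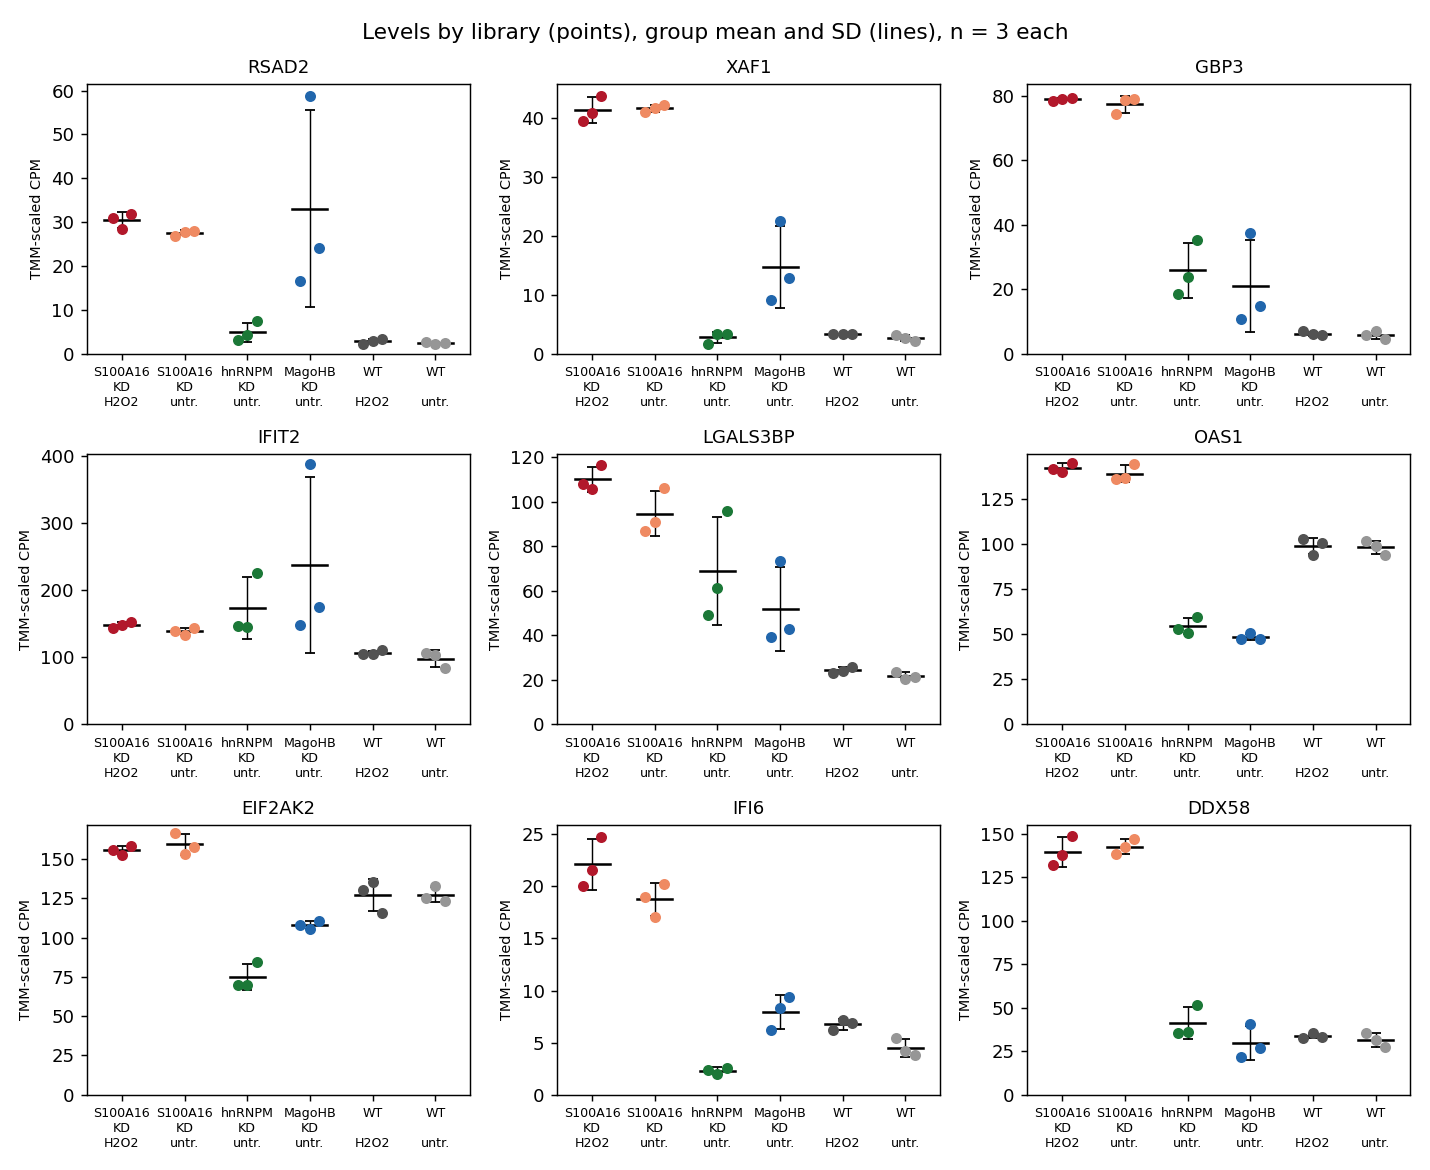
Each panel gives the TMM-scaled CPM of 1 gene in every library (points) with the group mean and SD (lines, n = 3) for the S100A16 KD under H2O2 and untreated, the hnRNPM KD, the MagoHB KD, and WT under H2O2 and untreated. RSAD2, XAF1 and GBP3 are high in both S100A16 KD groups, OAS1 is below WT in the hnRNPM and MagoHB KDs, and DDX58 is highest in both S100A16 KD groups.

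The order of the group means differed between genes. RSAD2 averaged 27.6 ± 0.593 CPM in the S100A16 KD, 4.94 ± 2.17 CPM in the hnRNPM KD and 33.1 ± 22.5 CPM in the MagoHB KD, against 2.45 ± 0.227 CPM in WT (SD, n = 3), where the S100A16 and MagoHB KDs overlapped. IFIT2 averaged 138 ± 5.36, 173 ± 46.2 and 237 ± 131 CPM in those KDs, against 97.9 ± 12.1 CPM in WT. OAS1 averaged 139 ± 4.84, 54.3 ± 4.39 and 48.4 ± 1.82 CPM, against 98.2 ± 3.71 CPM. The response element core in the promoter was found in genes that were called and in genes that were not. In the S100A16 KD, 24 of 25 genes with the core and 13 of 14 without it were called higher, with median log2 fold changes of 1.83 and 1.4. In the MagoHB KD these counts were 19 of 25 and 11 of 14 (medians 1.06 and 0.83), and in the hnRNPM KD 5 of 25 and 2 of 14 (0.16 and 0.02). Genes with no match in the stretch searched included XAF1, CMPK2, SAMD9L and DDX58, all among those higher by 2 or more in the S100A16 KD. The search took an exact spacing at a single annotated start per gene, so no match does not mean that the element is absent. The XAF1, DDX58 and OAS1 promoters held GAAACGAAAC, a like stretch with a shorter spacing that was not counted.

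Genes of the pathway outside the 49 were read from further lists, whose counts stand beside the shares of all genes called higher and lower, 27.6% and 24.8% in the S100A16 KD, 25.4% and 23.8% in the hnRNPM KD, and 23.3% and 22.3% in the MagoHB KD. With lists this short, several counts were near those shares. Of the receptors with JAK and STAT genes, 7 of 11 were called higher and 1 lower in the S100A16 KD, 7 and 2 in the hnRNPM KD, and 5 and 3 in the MagoHB KD. STAT3 was higher in the S100A16 (1.46), hnRNPM (0.91) and MagoHB (1.07) KDs. IFNAR1, a chain of the type I receptor, was higher in the S100A16 (0.75) and hnRNPM (0.64) KDs and lower in the MagoHB KD (-0.53), and JAK1 followed the same signs (0.47, 0.19 and -0.54).

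Of 9 interferon genes listed, 5 passed the filter, and 2 were called higher and 0 lower in the S100A16 KD, 1 and 2 in the hnRNPM KD, and 2 and 0 in the MagoHB KD. Levels were low. The lambda interferon gene IFNL2 averaged 2.39 ± 0.236 CPM in the S100A16 KD (0.73, adjusted p = 0.00514), 0.884 ± 0.264 CPM in the hnRNPM KD (-0.69, 0.0152) and 2.01 ± 0.515 CPM in the MagoHB KD (0.49, 0.0602), against 1.44 ± 0.236 CPM in WT (SD, n = 3). Its near-identical copy IFNL3 averaged 3.33, 1.17 and 3.22 CPM, against 2.47 CPM, and was lower in the hnRNPM KD (-1.08, 0.000138). IFNB1, which encodes interferon beta, had 0.428, 0.409 and 0.127 CPM in the S100A16 KD and 0.427, 1.03 and 0.456 CPM in the MagoHB KD, against 0.183, 0.136 and 0.137 CPM in WT, and was called in the MagoHB KD (2.06, 0.0116) but not in the S100A16 KD (1.06, 0.202). It was under the filter level of 0.222 CPM in all untreated WT libraries and over it in all MagoHB KD libraries, so it entered the test through groups in which it was high. IFNB1 is named although its level is under 1 CPM, and was chosen after its values were seen. The highest IFNB1 value was in MagoHB KD 2, the library in which most of the 49 genes were highest. Any link between them was not tested.

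Of the nucleic acid sensing genes, 12 of 13 were tested, and 6 were called higher and 4 lower in the S100A16 KD, 2 and 4 in the hnRNPM KD, and 6 and 1 in the MagoHB KD. IFI16, a nuclear DNA sensor, was higher in the S100A16 (2.81), hnRNPM (1.70) and MagoHB (2.33) KDs. NLRC5, which drives MHC class I genes, was higher in the S100A16 (2.63) and MagoHB (1.45) KDs. IKBKE, a kinase upstream of IRF3, was higher in the S100A16 and MagoHB KDs and lower in the hnRNPM KD, with means of 30.1, 17.9 and 8.16 CPM, against 13.5 CPM in WT. Of the negative regulators, 4 of 8 were called higher and 2 lower in the S100A16 KD, 5 and 2 in the hnRNPM KD, and 4 and 2 in the MagoHB KD, with SOCS3 higher in each (0.69, 1.05 and 0.44). Of 36 other antiviral interferon-stimulated genes, 35 were tested. In the S100A16 KD 26 of them were called higher and 3 lower, in the hnRNPM KD 10 and 7, and in the MagoHB KD 17 and 4. The chemokine gene CXCL11 was higher by 2.13, 1.03 and 2.02, and HELZ2, a helicase coactivator, by 1.62, 0.68 and 0.80. APOBEC3B, a cytidine deaminase that edits DNA, went the other way in all 3, at -1.31, -0.66 and -1.08.

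Some levels carry an uncertainty of counting, because strand use is not given. In the annotation, 19 of the 49 genes share exon bases with another gene, 6 of them over more than 10% of their exon length. IRF9 shares 48.4% with another gene on its own strand, and XAF1 shares 38.3% with a gene on the opposite strand. IFITM1 and IFITM2 share 351 bases, IFITM3 shares 21.3% with a gene on the opposite strand, and SP110 shares 24.3% with a gene on its own strand. The GBP genes are close copies of one another, so a read may have been assigned to another copy.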

How the data were processed

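Poly(A) mRNA of 18 A549 libraries in 6 groups of 3 was sequenced, and the labels call the replicates biological. The authors deposited 1 table of read counts per gene and another of RPKM values. Per the submitters' processing notes, the build was GRCh38 and the tools named include StringTie 2.1.4, DESeq2 1.32.0, the aligner HISAT2 2.2.1, FastQC 0.11.9 for read quality, and SAMtools 1.15.1. Which program counted the reads, with which annotation and whether by strand, the labels do not say. The deposited RPKM equalled counts over length and total for 100% of 531539 values above 0 (relative tolerance 0.001). Odd counts made up 18.6% to 22% of counts of 1 to 19, so both mates of a pair may have been counted, and halved counts were tried as an alternative.

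Counts were fitted in R 4.3.3 with edgeR 4.0.16 after filterByExpr and TMM scaling, with a robust quasi-likelihood F test, 1 mean per group over all 18 libraries and Benjamini-Hochberg adjustment over all 22382 genes tested; called means an adjusted p under 0.05. CPM are TMM-scaled values computed from the counts. The script was tested on simulated data. Members and lists were chosen with earlier results of these data known. Beside the 49 genes, which may all be named, the genes singled out were those called, with a mean of at least 1 CPM, that had the 6 highest or 6 lowest fold changes against WT or the 6 largest differences between KDs. Pathway genes beyond the 49 were named where called with a mean of at least 1 CPM, apart from IFNB1. Alternatives were scaling by total counts, no filter beyond 1 count, a replicate block, halved counts, the compared groups alone, DESeq2 1.42.0, each library left out in turn and, chosen after seeing the data, the 3 libraries that stood apart left out. 1 gene of the pathway lists is not reported here.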

Additional observations from a re-analysis of the deposited data

How the results depend on the processing

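The 46 genes called higher in the untreated S100A16 KD stayed called in every alternative run, with counts of 46 to 48, and no named fold change reversed its sign past the threshold. Scaling by total counts alone shifted the median of all genes by 0.237 on the log2 scale in the untreated S100A16 KD, 0.21 in the MagoHB KD and 0.114 in the hnRNPM KD. In the hnRNPM KD, genes called higher ranged from 4 to 13 with 1 library left out, and 14 were called higher and 14 lower without the 3 libraries that stood apart. Between the S100A16 and MagoHB KDs, genes called lower numbered 1 by total counts, with no filter, with the replicate block, with the compared groups alone and without the 3 libraries, and 1 to 2 with 1 library left out. Between the hnRNPM and MagoHB KDs, genes called higher numbered 1 by total counts, with no filter and with the compared groups alone, 5 without the 3 libraries, and 1 to 7 with 1 library left out. For H2O2 in WT, 1 gene was called with no filter, 4 with the compared groups alone and 1 with DESeq2. For H2O2 in the S100A16 KD, 2 were called with the compared groups alone, 1 with DESeq2 and 1 without the 3 libraries. The cause of these changes was not tested. Correlations of the deviations of same-numbered replicates ran from -0.175 to 0.240 between the hnRNPM and MagoHB KDs, and from -0.0163 to 0.0563 in the other comparisons. With 3 libraries per group, they cannot show whether same-numbered samples were handled together. With the replicate block 46 genes were called higher in the untreated S100A16 KD, 11 higher and 8 lower in the hnRNPM KD, and 37 higher and 3 lower in the MagoHB KD. Levels under about 1 CPM, as for MX2, IFNB1, BST2 in WT and CMPK2 in the hnRNPM KD, limit the precision of their fold changes.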
